A study of Mus musculus with 4 samples.

Results

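The Schlafen genes are a family of growth-regulatory and interferon-inducible genes of leukocytes, named after the German word for sleeping. The 7 members described here, Slfn1, Slfn2, Slfn3, Slfn4, Slfn5, Slfn8 and Slfn9, were taken by gene name from a deposited table of 54532 genes. Each library was made from total RNA of naive CD4+ T cells from mouse spleen, kept for 3 days in conditions for T follicular helper (Tfh) polarization, Tfh cells being the helper T cells of B cell follicles. The DMF group holds 2 libraries from cultures with dimethyl fumarate (DMF), an electrophilic drug known for turning on the antioxidant factor Nrf2, and the control group holds 2 libraries from cultures without it. All cells carried the wild-type genotype. The labels give neither a dose of DMF, nor the age of the mice, nor whether replicates are separate cultures or mice. The p-values therefore reflect the spread among these 4 libraries alone, and that spread may be technical. The comparison asks which transcripts differ when DMF is present during Tfh polarization.

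Mouse Schlafen proteins fall into a short, an intermediate and a long class. Slfn1 and Slfn2 are short, Slfn3 and Slfn4 are intermediate, and Slfn5, Slfn8 and Slfn9 are long and carry a region that resembles an RNA helicase. The core that all share is related to RNA-binding and RNA-cleaving enzymes. Slfn1 blocks the growth of thymocytes when forced on, and in mice that lack working Slfn2 the T cells fail to stay quiescent. Slfn2 protein also binds transfer RNA and shields it from cleavage when T cells meet oxidative stress.

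All 7 members lie in 1 block of 264 kb on chromosome 11 (GRCm38, chr11:82951349-83215154). The promoters of the 2 most abundant members and of the 2 closest relatives are shown, since these pairs differed between the groups in ways described further on. Each is the 250 bases before the RefSeq start (GRCm38.p6), read 5′ to 3′ on the gene's strand, and all 7 members were found in that table. Slfn1 (chr11:83116570-83116819, + strand) and Slfn2 (chr11:83064862-83065111, + strand) hold a common run, given in capitals. Slfn8 (chr11:83020811-83021060, − strand, the outer of its listed starts) and Slfn9 (chr11:82991831-82992080, − strand) each hold a match to the interferon-stimulated response element, in capitals.
Slfn1: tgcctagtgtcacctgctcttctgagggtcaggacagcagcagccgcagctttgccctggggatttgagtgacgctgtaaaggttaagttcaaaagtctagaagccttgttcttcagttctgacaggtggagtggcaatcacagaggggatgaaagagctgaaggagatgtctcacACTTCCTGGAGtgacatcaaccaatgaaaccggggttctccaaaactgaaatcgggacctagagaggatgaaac
Slfn2: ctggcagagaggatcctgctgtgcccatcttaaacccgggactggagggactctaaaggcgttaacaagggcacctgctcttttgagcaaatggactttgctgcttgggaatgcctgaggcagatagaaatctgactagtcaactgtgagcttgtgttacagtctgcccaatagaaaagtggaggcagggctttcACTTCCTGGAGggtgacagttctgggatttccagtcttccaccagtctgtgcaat
Slfn8: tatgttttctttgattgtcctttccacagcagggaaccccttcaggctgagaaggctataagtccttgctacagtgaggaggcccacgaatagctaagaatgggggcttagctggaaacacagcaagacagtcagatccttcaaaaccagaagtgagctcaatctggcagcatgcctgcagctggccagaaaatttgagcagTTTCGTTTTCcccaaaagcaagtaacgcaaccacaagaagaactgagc
Slfn9: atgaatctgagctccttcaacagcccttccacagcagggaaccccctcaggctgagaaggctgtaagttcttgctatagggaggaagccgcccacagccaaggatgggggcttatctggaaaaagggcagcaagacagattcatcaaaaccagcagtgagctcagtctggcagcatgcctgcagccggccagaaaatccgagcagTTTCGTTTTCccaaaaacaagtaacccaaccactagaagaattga
The run ACTTCCTGG is held by the promoters of Slfn1, Slfn2, Slfn3 and Slfn4, the short and intermediate members, and by none of the promoters of Slfn5, Slfn8 and Slfn9. On either strand it is found in 0.70% of 32851 promoter windows of the same length. The longer ACTTCCTGGAG is in Slfn1, Slfn2 and Slfn4 and in 20 windows in all. This run was found by comparing these same promoters, so the shares describe it and test nothing. The promoters of Slfn8 and Slfn9 could be aligned over 245 bases, of which 204 (83.3%) were identical. Their interferon-stimulated response element, searched on both strands as a pair of GAAA runs with any 2 bases between them, reads TTTCGTTTTC in both genes and starts 48 bases before the start of Slfn8 and 45 bases before that of Slfn9. Slfn5 holds another match, and 2.98% of all windows hold at least 1. The antioxidant response element bound by Nrf2, searched as TGACNNNGC on both strands, matched in Slfn3 and Slfn5 and in 10.2% of all windows. The STAT element TTCNNNGAA and the forkhead element GTAAACA, both searched on both strands, matched in none of the 7, against 7.02% and 3.17% of all windows.

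The deposited values are FPKM, that is fragments scaled to the length of the gene and to a library size. Whole reads recovered from them sum to 17134385 and 17516953 reads in DMF replicates 1 and 2, and to 17171199 and 15900118 reads in control replicates 1 and 2. The FPKM imply library sizes of 18302380 and 18672223 in DMF replicates 1 and 2. In control replicates 1 and 2 these sizes are 17725674 and 13929627. Only in control replicate 2 is the implied size below the read sum, so its FPKM are higher relative to its reads. Control replicate 2 stands apart from the other libraries. The difference between the controls on the log2 scale had an SD of 0.74 over 12166 genes, against 0.32 between the DMF libraries. The results of the tested members are therefore given with and without it. Markers of the labelled cells were present. Cd4 was at 103 and 100.3 FPKM in DMF and 128 and 105 FPKM in control cultures. All 5 Tfh markers passed the level filter. Bcl6, Pdcd1 and Cxcr5 had both DMF values above both controls, Il21 and Icos had both below, and 0 of the 5 passed the test with all 4 libraries. Of all 12166 tested genes 26.4% lay above and 26.8% below both controls. Bcl6, the factor that defines Tfh cells, was at 6.58 and 6.75 FPKM in DMF and 4.55 and 3.24 FPKM in control cultures. Il21, their main cytokine, was at 9.17 and 10.8 FPKM in DMF and 31.2 and 25.5 FPKM in control cultures. Without control replicate 2, the difference DMF minus control on the log2 scale was 0.76 for Pdcd1, 0.47 for Bcl6 and 0.46 for Cxcr5. For Il21 it was -1.55 and for Icos -0.46.

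Slfn1 was lower in DMF cultures than in control cultures, Slfn2 was the most abundant member by far in every library, and Slfn3 and Slfn9 were higher in DMF cultures. Slfn5 was lower in DMF cultures, Slfn8 lay between the controls, and Slfn4 was barely detected. Of the 6 members with a mean of at least 1 FPKM, 2 had both DMF values above the higher control (26.4% of the 12166 tested genes did) and 2 had both below the lower control (26.8% of tested genes did). Together 4 of 6 members did not overlap between the groups, against 53.2% of tested genes, so the members' count is near that of all genes. No member passed the test across all genes (limma on log2(FPKM + 1), adjusted p under 0.05), where 0 of 12166 genes passed (percent called 0), 1150 genes (9.45%) had an unadjusted p under 0.05, and voom in limma, run on recovered reads, called 0 too. Slfn1 and Slfn3 were the members among those 1150 genes. The median difference of the 6 members was -0.19 on the log2 scale, against -0.013 for all tested genes. Without control replicate 2 the members Slfn1 and Slfn8 passed as lower (8.28% of genes passed, 5.51% as lower) and 0 members passed as higher (2.77% of genes did). Without control replicate 1, 5 members passed, where 61% of all genes passed. With the replicate number as a block, which marks no shared source in the labels, Slfn1 alone passed among the members, where 4.54% of genes passed (1.67% as higher and 2.87% as lower). With the gene length trend removed 0 genes passed.

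**Figure D1:**
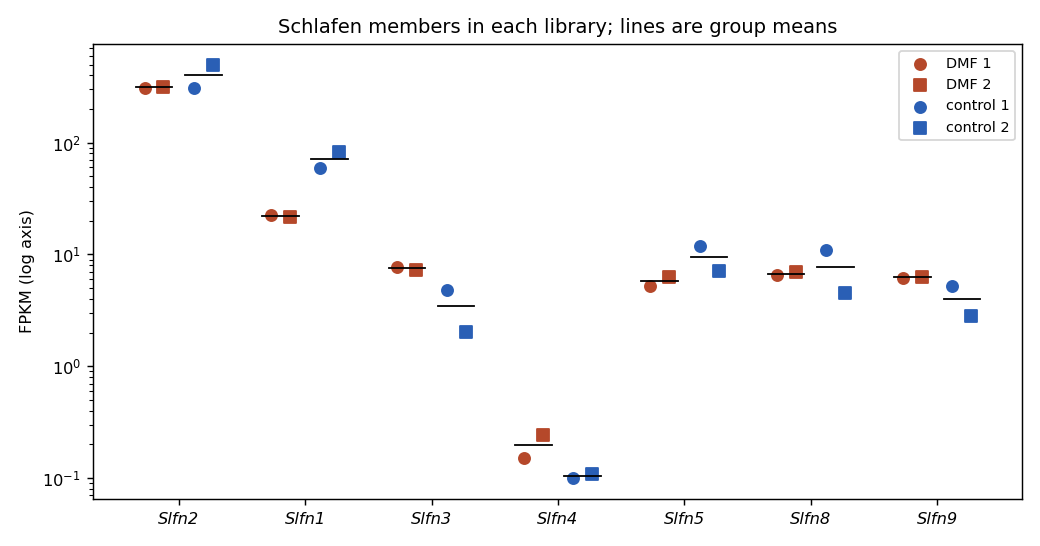
FPKM (log axis) of the 7 Schlafen members in DMF and control libraries, with 1 point per library and a line at each group's mean. Both Slfn1 points of the DMF group (22.3 and 21.7 FPKM) sit below both control points (58.9 and 83.0 FPKM), while the DMF points of Slfn2 sit next to control replicate 1.

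Among the short members, Slfn2 (ENSMUSG00000072620, chr11:83065112-83070678, + strand, protein coding) was at 311 and 313 FPKM in DMF cultures and at 308 and 498 FPKM in control cultures. The DMF libraries and control replicate 1 thus lay close together, and control replicate 2 alone was high. That height is not particular to Slfn2. The summed FPKM of all tested genes was 484990 in control replicate 2, against 313870 in control replicate 1 and 292430 and 298540 in DMF cultures. By level it ranked 95th and 94th among 22046 protein-coding genes in DMF libraries, and 111th and 140th in control libraries. The group means were 312 ± 1.88 FPKM in DMF and 403 ± 134 FPKM in control cultures (SD, n = 2 each), and the difference was -0.33 ± 0.36 (log2, SE; limma adjusted p = 0.659). Without control replicate 2 the difference was 0.018 ± 0.033, and without control replicate 1 it was -0.67 ± 0.03 (limma adjusted p = 0.00193). It was 0.0045 ± 0.17 with the gene length trend removed and 0.31 under quantile normalization, so no direction can be given for Slfn2.

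Slfn1 (ENSMUSG00000078763, chr11:83116849-83122670, + strand, protein coding), the next member along the chromosome, arrests the growth of developing T cells when it is forced on in mice. It was at 22.3 and 21.7 FPKM in DMF cultures, from 761 and 757 reads, and at 58.9 and 83.0 FPKM in control cultures, from 1945 and 2155 reads. The groups did not overlap, and the gap between them was larger than that between the controls. The means were 22.0 ± 0.394 FPKM in DMF and 70.9 ± 17.1 FPKM in control cultures (SD, n = 2 each), a ratio of 0.311. The difference was -1.62 ± 0.24 (log2, SE; limma adjusted p = 0.217), which ranked 99th of the tested genes and did not pass. Without control replicate 2 it was -1.38 ± 0.05 with a limma adjusted p of 0.0173, a level that 5.51% of genes reached in that direction. Without control replicate 1 it was -1.87 ± 0.05 (limma adjusted p = 0.00134), where 33.4% of genes passed as lower. In both of these fits a single control is assumed to vary like the DMF libraries. Slfn1 was lower in DMF cultures under all 12 alternatives, from -1.87 to -1.31. Since its groups did not overlap, only the alternatives that rescale the libraries could have changed that sign. These gave -1.60 (trimmed-mean scaling), -1.41 (quantile normalization), -1.50 (voom) and -1.31 (gene length trend removed).

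Slfn1 and Slfn2 have like lengths in the table, 1864 and 1664 bp, and both were higher in control replicate 2 than in control replicate 1, by 0.49 and 0.69 on the log2 scale. The 500 tested genes nearest in length had medians of 0.58 and 0.64 for this gap. The ratio of Slfn2 to Slfn1 within a library was 13.9 and 14.4 in DMF cultures and 5.24 and 6.0 in control cultures. The controls lay close together in this ratio, and the DMF libraries were on average 2.53-fold above them. The exact permutation test of 2 against 2 libraries cannot go below 0.333 (two-sided), the value found here. Slfn1 made up 6.22% and 6.0% of the summed FPKM of the 7 members in DMF cultures and 14.7% and 13.9% in control cultures. Such a ratio describes Slfn1 against Slfn2, and does not say which of them differed.

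**Figure D2:**
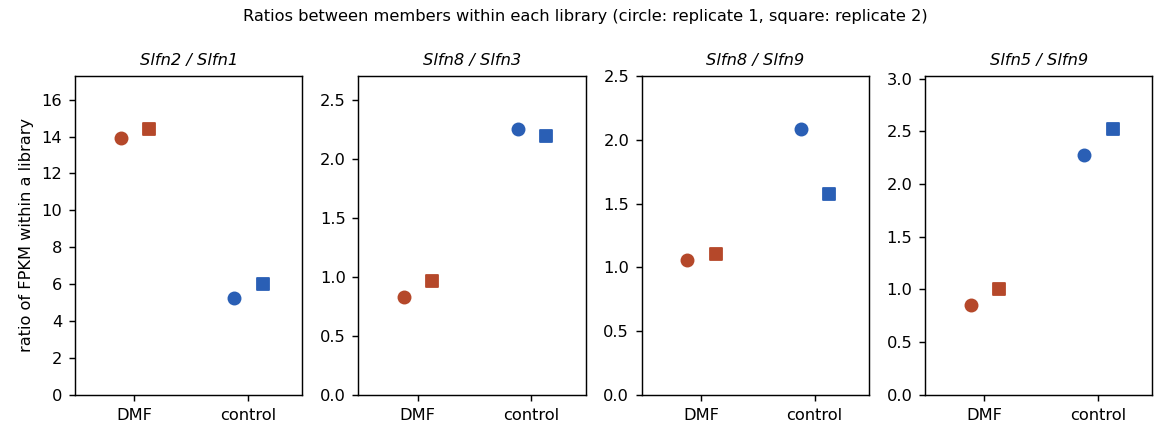
Ratio of the FPKM of 2 members within each library, DMF left of control, on linear axes that start at 0. The DMF and control points do not overlap in any of the 4 ratios, with Slfn2 over Slfn1 at 13.9 and 14.4 in DMF and 5.24 and 6.0 in control cultures.

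Among the intermediate members, Slfn3 (ENSMUSG00000018986, chr11:83191330-83215154, + strand, protein coding), studied mainly in the differentiation of gut epithelium, was at 7.78 and 7.25 FPKM in DMF cultures and at 4.81 and 2.04 FPKM in control cultures. Both DMF libraries were above both controls, and the controls differed by more than the DMF libraries did. The means were 7.52 ± 0.375 FPKM in DMF and 3.43 ± 1.96 FPKM in control cultures (SD, n = 2 each), a ratio of 2.19. The difference was 1.02 ± 0.36 (log2, SE; limma adjusted p = 0.518), and without control replicate 2 it was 0.55 ± 0.10 (limma adjusted p = 0.0622). Without control replicate 1 it was 1.49 ± 0.10 (limma adjusted p = 0.00265), where 27.6% of genes passed as higher. The direction held under all 12 alternatives, but only those that rescale the libraries could have changed it, as the groups did not overlap. Slfn4 (ENSMUSG00000000204, chr11:83175186-83190216, + strand, protein coding), a gene of activated macrophages and other myeloid cells, had 11 and 18 reads in DMF cultures and 7 and 6 reads in control cultures. That is 0.152 and 0.243 FPKM in DMF against 0.0996 and 0.109 FPKM in control cultures, with both DMF values above both controls. These levels are below the filter, so no test was made. Of 10 myeloid markers, 4 passed the filter, and the list summed to 11.7 and 8.92 FPKM in DMF and 9.25 and 12 FPKM in control cultures. Of the 4, Cd68 (5.82 and 5.84 FPKM in DMF and 4.62 and 5.43 FPKM in control cultures) and Cybb (1.72 and 1.72 FPKM in DMF and 0.971 and 0.334 FPKM in control cultures) lay above both controls. Lyz2, at 1.58 and 0.407 FPKM in DMF and 2.40 and 3.33 FPKM in control cultures, lay below both, and Fcer1g overlapped. The Lyz2 values rest on 38 and 10 reads in DMF and 56 and 61 reads in control cultures. Among all tested genes 26.4% lay above and 26.8% below both controls. Of the 6 below the filter, S100a8 was listed at 0 in DMF replicate 2 and both controls, S100a9 at 0 in both controls, and Csf1r was under 0.1 FPKM in every library. The part of myeloid cells in the Slfn4 values was not tested, nor was that of reads common to Slfn4 and Slfn3.

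Among the long members, Slfn5 (ENSMUSG00000054404, chr11:82951349-82964840, + strand, protein coding), an interferon-induced nuclear protein in human cells, was at 5.22 and 6.32 FPKM in DMF cultures and at 11.8 and 7.16 FPKM in control cultures. Both DMF libraries were below both controls, but the gap between DMF replicate 2 and control replicate 2 was smaller than that between the controls. The difference was -0.60 ± 0.28 (log2, SE; limma adjusted p = 0.561), -0.93 ± 0.14 without control replicate 2 (limma adjusted p = 0.0502) and -0.27 ± 0.14 without control replicate 1. Slfn5 was lower in DMF cultures under all 12 alternatives and passed under none of them. Only those that rescale the libraries could have changed its sign. Slfn9 (ENSMUSG00000069793, chr11:82978390-82991830, − strand, protein coding), its neighbour, was at 6.15 and 6.32 FPKM in DMF cultures and at 5.20 and 2.84 FPKM in control cultures. It was higher in both DMF libraries, by 0.57 ± 0.29 (log2, SE; limma adjusted p = 0.561). Without control replicate 2 that was 0.22 ± 0.09, and without control replicate 1 it was 0.91 ± 0.09 (limma adjusted p = 0.00527). Slfn8 (ENSMUSG00000035208, chr11:83002158-83020810, − strand, protein coding), which hampers thymocyte maturation when forced on in mice, was at 6.49 and 7.0 FPKM in DMF cultures and at 10.9 and 4.47 FPKM in control cultures. The DMF libraries lay between the controls, and the difference was -0.057 ± 0.41 (log2, SE; limma adjusted p = 0.949). It was -0.61 ± 0.09 without control replicate 2 (limma adjusted p = 0.0496) and 0.50 ± 0.09 without control replicate 1 (limma adjusted p = 0.0202), so which control is used sets its direction.

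**Figure D3:**
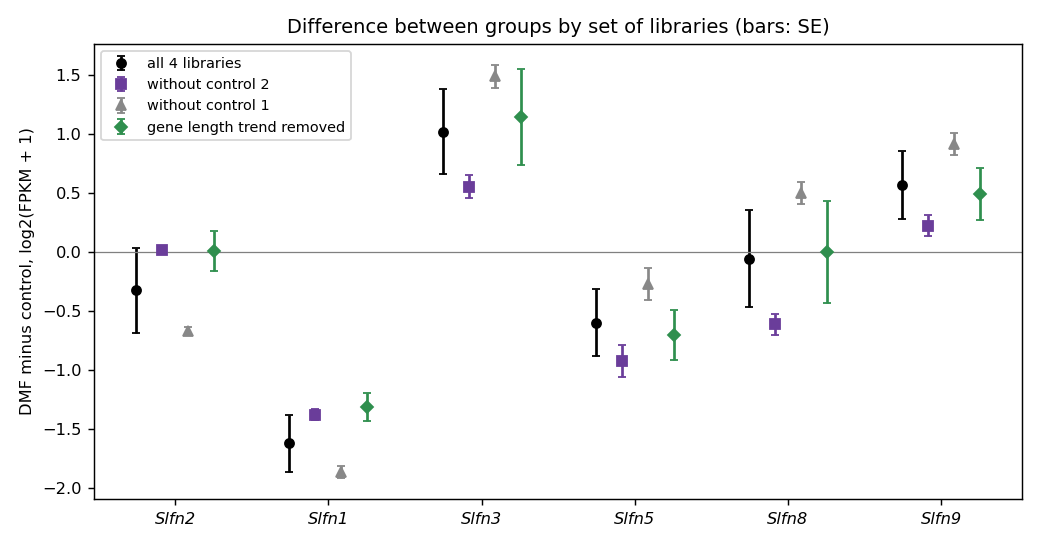
Difference DMF minus control on the log2(FPKM + 1) scale, with SE, for the 6 tested members, with all 4 libraries, without either control and with the gene length trend removed. Slfn1 stays between -1.87 and -1.31 and Slfn3 between 0.55 and 1.49, while Slfn2 and Slfn8 lie on either side of 0.

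Within a library, the long members stood in different proportions in DMF and control cultures. The ratio of Slfn5 to Slfn9, with lengths of 6326 and 5965 bp, was 0.849 and 1.0 in DMF cultures and 2.27 and 2.52 in control cultures. The controls thus lay close together in this ratio, although each gene alone differed between them. The ratio of Slfn8 to Slfn9, the pair with like promoters, was 1.06 and 1.11 in DMF cultures and 2.09 and 1.58 in control cultures. The ratio of Slfn8 to Slfn3 was 0.834 and 0.966 in DMF cultures and 2.25 and 2.19 in control cultures, a gap of 0.04 between the controls on the log2 scale. None of the 4 ratios shown overlapped between the groups, and each has an exact permutation p of 0.333 (two-sided), the smallest that 2 against 2 libraries allow. These p-values are not adjusted over pairs. Of the 15 possible pairs of tested members, 13 did not overlap between the groups. These pairs share 6 genes and no share over pairs of other genes was computed, so nothing is read from that count. The 4 shown were chosen for like lengths or like sequence after their values were seen.

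By level per length, the order in DMF cultures was Slfn2, Slfn1, Slfn3, Slfn8, Slfn9, Slfn5 and Slfn4 by the group means. The mean levels of Slfn3, Slfn8, Slfn9 and Slfn5 in DMF cultures, at 7.52, 6.75, 6.23 and 5.77 FPKM, lay near each other, and of these neighbours Slfn3 and Slfn8 did not overlap between libraries whereas Slfn9 and Slfn5 did. In control cultures the order was Slfn2, Slfn1, Slfn5, Slfn8, Slfn9, Slfn3 and Slfn4, and the means of 9.49 FPKM for Slfn5 and 7.66 FPKM for Slfn8 differed by less than the spread between the controls. By mean level Slfn3 was thus above Slfn5, Slfn8 and Slfn9 in DMF cultures and below them in control cultures.

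The gap between the controls was itself uneven over the family. Control replicate 2 lay below control replicate 1 by 0.93 for Slfn3, 1.11 for Slfn8, 0.69 for Slfn9 and 0.65 for Slfn5 on the log2 scale. Among the 500 tested genes nearest in length the median gap, control replicate 2 minus control replicate 1, was 0.15, 0.05, -0.20 and -0.19 for these 4 genes. The gaps of Slfn3 and Slfn8 fell outside the range that holds 95% of those genes (-0.60 to 0.97 and -0.76 to 0.98), while those of Slfn9 and Slfn5 fell inside it. The pseudogene Slfn10-ps (ENSMUSG00000072621, chr11:83028130-83040042, − strand), which lies between Slfn8 and Slfn2, had the widest gap of the family. It was at 18.0 and 18.5 FPKM in DMF cultures and at 13.5 and 1.35 FPKM in control cultures, from 866 and 68 reads in the controls. Control replicate 2 was thus at 9.99% of control replicate 1, a gap of -2.63 against a range of -0.74 to 1.00 for genes of like length. The labels do not say whether the controls come from the same mice or from mice of 1 strain, and the source of this gap was not tested. The difference between the groups was 1.72 ± 0.90 (log2, SE; limma adjusted p = 0.561) and 0.41 ± 0.06 without control replicate 2 (limma adjusted p = 0.0503). The other rows of the family hold almost no reads: Slfn14 had 3 and 1 reads in DMF and 0 in both control libraries, Slfnl1, on chromosome 4, had 2 and 0 reads in DMF and 0 in both control libraries, and a count of 0 allows up to 3 reads.

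**Figure D4:**
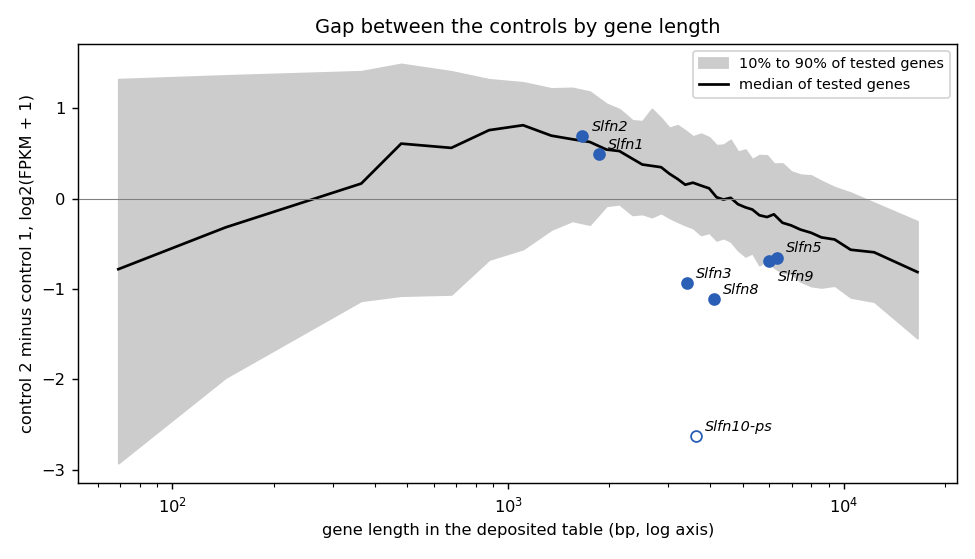
Control replicate 2 minus control replicate 1 on the log2(FPKM + 1) scale against gene length (log axis), with the median and the central 80% of tested genes in bins of length. Slfn1 and Slfn2 lie near the median, Slfn3 and Slfn8 lie below the band, and the pseudogene Slfn10-ps (open point) lies at -2.63.

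How the counting treated reads common to close relatives is not given in the sources used here. In the GENCODE transcripts, 14.6% of the runs of 50 bases of Slfn8 and 11.2% of those of Slfn9 also occur in another member or in Slfn10-ps or Slfn14. The share was 19.7% for Slfn10-ps, 8.15% for Slfn4, 7.39% for Slfn3, 4.27% for Slfn2 and 0.606% for Slfn1, and no run of Slfn5 was shared. With runs of 100 bases the highest shares were 7.84% for Slfn10-ps, 3.71% for Slfn9 and 3.38% for Slfn8. Values of Slfn8, Slfn9 and Slfn10-ps, and the few reads of Slfn4, are therefore uncertain, by an amount that these shares do not give. The closest relative of Slfn4 was Slfn3, which holds 6.28% of the Slfn4 runs of 50 bases. Slfn2 also overlaps the antisense gene Gm20234, which had 60 and 56 reads in DMF and 55 and 38 reads in control cultures against 9464 and 9738 reads in DMF and 9090 and 11552 reads in control cultures for Slfn2. The antisense gene Slfn5os had 0 reads in all libraries.

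Several Schlafen genes are induced by interferons, so the genes that carry the interferon signal were set beside them. Of 12 receptor and signal genes, all of them tested, 9 had both DMF values under the lower control, 2 had them over the higher control, and 0 passed. Over all tested genes these shares were 26.8% under and 26.4% over. Ifngr1, a chain of the interferon gamma receptor, was at 7.5 and 5.29 FPKM in DMF cultures and at 20.3 and 24.7 FPKM in control cultures (-1.68 ± 0.24 log2, SE; limma adjusted p = 0.201). Irf7, a factor that drives interferon genes, was at 2.20 and 1.74 FPKM in DMF cultures and at 5.9 and 11 FPKM in control cultures, and Ifnar2, a chain of the type I interferon receptor, at 7.32 and 8.27 FPKM in DMF and 12 and 11.8 FPKM in control cultures. The groups did not overlap in any of these 3 genes. The median difference of the 12 was -0.55 on the log2 scale, against -0.013 for all tested genes, and 3 of the list passed as lower without control replicate 2, where 5.51% of all genes did.

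Of 16 interferon-stimulated genes, 15 were tested, 10 of them with both DMF values under the lower control and 3 over the higher one (26.8% and 26.4% of all tested genes), and 0 passed. Xaf1, a pro-apoptotic factor, was at 1.65 and 1.52 FPKM in DMF cultures and at 4.92 and 6.35 FPKM in control cultures (-1.35 ± 0.21 log2, SE; limma adjusted p = 0.222). Rtp4, a chaperone of receptors, was at 0.641 and 0.653 FPKM in DMF cultures and at 2.44 and 4.24 FPKM in control cultures. Usp18, which removes ISG15 from proteins, was at 2.02 and 1.57 FPKM in DMF cultures and at 5.20 and 5.22 FPKM in control cultures. The 3 over the higher control were Rsad2, Ifit1 and Ifit3, while Isg15 and Mx1 overlapped. Rsad2 was at 2.02 and 1.84 FPKM in DMF cultures and at 0.937 and 0.613 FPKM in control cultures. The list's median was -0.64 on the log2 scale, against -0.013 for all tested genes. The median without control replicate 2 was -0.54, against 0.014 for all tested genes, and 6 passed as lower, where 5.51% of all genes did. Slfn1 and Slfn5 lay in the same direction as most of these genes, and Slfn3 and Slfn9 in the other.

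Slfn2 is known as a guard of T cell quiescence, so 15 other genes of the resting T cell state were examined. All 15 were tested, with both DMF values under the lower control in 9 and over the higher one in 4 (26.8% and 26.4% of all tested genes), and 0 passed. S1pr1, the receptor for leaving lymph nodes, was at 8.36 and 6.45 FPKM in DMF cultures and at 39.5 and 35.5 FPKM in control cultures, and Il7r, the interleukin 7 receptor, was at 0.352 and 0.333 FPKM in DMF cultures and at 5.0 and 4.14 FPKM in control cultures. In both genes the DMF libraries were far below both controls, and the controls lay close together. The 4 over the higher control were Bach2, Foxp1, Tsc1 and Runx1. Of these, Bach2 was at 58.5 and 56.1 FPKM in DMF cultures and at 45.9 and 21.7 FPKM in control cultures. The list's median was -0.48 on the log2 scale, against -0.013 for all tested genes, and 8 of 15 passed as lower without control replicate 2, where 5.51% of all genes did. Foxo1 and Tob1, both known to restrain T cell activation, differed by 0.0037 ± 0.26 and -0.0011 ± 0.18 on the log2 scale (SE).

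For transfer RNA cleavage, which Slfn2 protein opposes, 6 of 7 genes were tested, 1 above and 2 below both controls, and 0 passed. That count is close to the 53.2% of all tested genes whose groups did not overlap. Rnh1, the inhibitor of angiogenin and related ribonucleases, was at 43.9 and 44.8 FPKM in DMF cultures and at 73.8 and 127 FPKM in control cultures (-1.11 ± 0.32 log2, SE; limma adjusted p = 0.46). Without control replicate 2 the difference was -0.72 with a limma adjusted p of 0.0198. Ang, which encodes angiogenin, was listed at 0 in both DMF libraries and control replicate 1 and at 0.119 FPKM in control replicate 2. Mettl1, a transfer RNA methyltransferase, was at 13.0 and 13.5 FPKM in DMF cultures and at 9.61 and 14.2 FPKM in control cultures, so that the groups overlapped. Trdmt1, which methylates cytosine in transfer RNA, was at 1.5 and 1.51 FPKM in DMF cultures and at 1.06 and 1.48 FPKM in control cultures. The list's median was 0.035 on the log2 scale, and -0.074 without control replicate 1. Cyclin D1, which forced Slfn1 lowers in mouse fibroblasts, was below the filter as Ccnd1, at 0.174 and 0.125 FPKM in DMF and 0.467 and 0.061 FPKM in control cultures. Ccnd3 was at 21.5 and 22.9 FPKM in DMF cultures and at 29.5 and 38.5 FPKM in control cultures, and Ccnd2 at 85.2 and 87.4 FPKM in DMF and 107 and 66.7 FPKM in control cultures, where the groups overlapped.

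Around the block, 25 protein-coding neighbours lie within 500 kb on either side, and 11 of them were tested, with DMF values under both controls in 4, over both in 1, and 0 passed. Over all tested genes 53.2% did not overlap, so the neighbours' count is no higher than that. The nearest on either side, Unc45b and Slfn14, were below the level filter. Nle1, the nearest tested gene before Slfn5, differed by -0.043 ± 0.24 on the log2 scale (SE). The smallest p values belonged to the chemokine genes Ccl3 and Ccl4, farther on. Ccl4 was at 9.02 and 9.25 FPKM in DMF cultures and at 17.1 and 40.6 FPKM in control cultures (-1.44 ± 0.44 log2, SE; limma adjusted p = 0.476). Ccl3 was at 6.63 and 8.18 FPKM in DMF and 13.5 and 24.2 FPKM in control cultures (-1.19 ± 0.33 log2, SE; limma adjusted p = 0.413). Zfp830 came next, with a difference of -0.36 ± 0.18 (SE, limma adjusted p = 0.561). The median of the 11 neighbours was -0.043, and within the block Slfn1 and Slfn3 lay on either side of it.

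**Figure D5:**
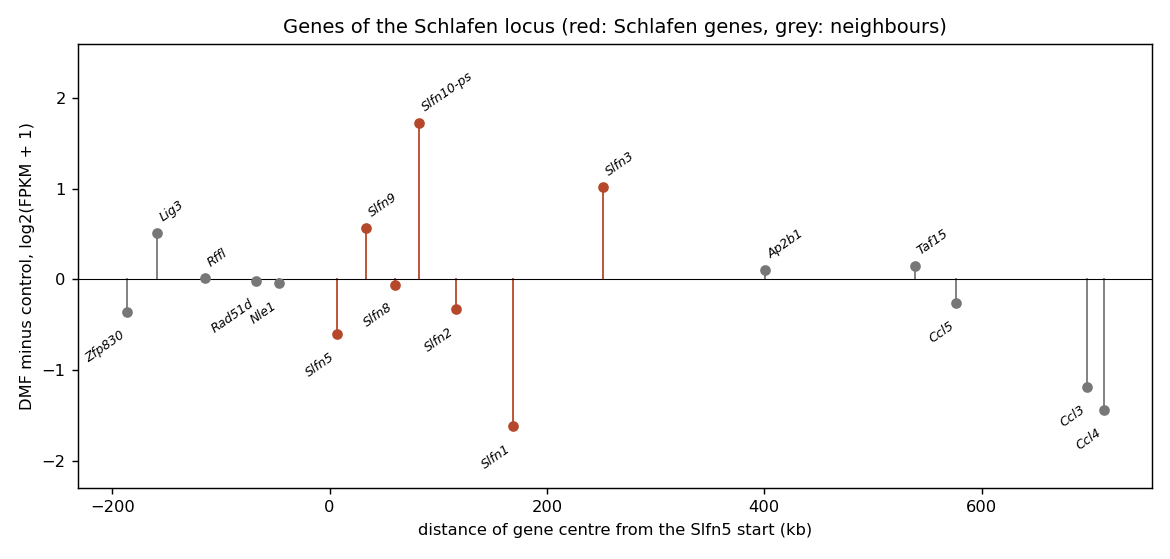
Difference DMF minus control on the log2(FPKM + 1) scale for the tested Schlafen genes and 10 of the 11 tested neighbours, by the distance of the gene's centre from the start of Slfn5. The neighbours shown run from -1.44 for Ccl4 to 0.52 for Lig3, and the Slfn genes from -1.62 for Slfn1 to 1.72 for the pseudogene Slfn10-ps; the other tested neighbour is not reported here.

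The genes whose pattern over the 4 libraries was most like that of Slfn2, the most abundant member, were Eri3, Snx17 and Eif2b1, by the root mean square distance of their centred log2 profiles (0.0034, 0.0137 and 0.0139). Each shares the high value of control replicate 2: Eri3 was at 10.6 and 10.7 FPKM in DMF cultures and at 10.5 and 17.5 FPKM in control cultures.

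Other leukocytes also express Schlafen genes, and fewer cells of a type cannot be told apart from less RNA per cell in these bulk samples. The 7 markers of CD8 T and NK cells summed to 3.04 and 2.96 FPKM in DMF cultures and to 13.2 and 21.7 FPKM in control cultures. Ncr1 and Klrb1c, which define NK cells, were listed at 0 in all libraries, and the 3 tested markers were below both controls. The 6 B cell markers summed to 84.9 and 83.7 FPKM in DMF cultures and to 79.5 and 120 FPKM in control cultures. Ighm made up most of each sum, at 62.7 and 62.4 FPKM in DMF and 71.6 and 107 FPKM in control cultures. It lay below both controls, while the other 4 of 5 tested markers lay above both. Ms4a1, below the filter, also lay above both, at 0.998 and 1.17 FPKM in DMF and 0.228 and 0.139 FPKM in control cultures. Over all tested genes 26.4% lay above and 26.8% below both controls. The summed FPKM of all tested genes was 292430 and 298540 in DMF cultures and 313870 and 484990 in control cultures. It was thus itself highest in control replicate 2, and none of the marker sums was scaled to these totals. The 8 markers of CD4 T cells summed to 1315 and 1317 FPKM in DMF cultures and to 1438 and 1946 FPKM in control cultures, and 6 lay below both controls, among them Cd2. The part of these cells in the differences of Slfn1, Slfn3, Slfn5 and Slfn9 was not tested.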

How the data were processed

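RNA-seq of 2 DMF and 2 control libraries was examined. The authors deposited 1 FPKM table, which per its file header also lists each gene's name, position and length. Aligner and counting program: not given in the sources used here. Both edgeR and the build mm8 appear in the submitters' processing notes with no stated use. Coordinates are given as GRCm38, since 98.3% of the 54409 identifiers found in GENCODE M21, and all 7 members, have the same position there. FPKM times length gave whole multiples of 1 step per library (within 0.01) for 100% of values, taken as reads.

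limma 3.58.1 in R 4.3.3 (lmFit, eBayes with a trend) compared DMF with control on log2(FPKM + 1), two-sided, over the 12166 genes whose mean FPKM reached 1, Benjamini-Hochberg adjusted, with 0.05 as the threshold. A fold change on this scale understates low genes. Members were taken by gene name. All 7 are named, with up to 3 genes of smallest p per list, the nearest neighbours and the 3 most like profiles; other genes named were chosen after their values were seen. Of the genes this rule picks, 2 are not reported here. Members and lists were chosen with earlier results of these data known. Replicates of a group differed beyond counting noise (chi-square per degree of freedom 3.61 for DMF and 147 for control) and were kept as 2 samples. Same-numbered libraries did not deviate together (correlation -0.023). The fits were also run on simulated reads, with no outcome given here, so nothing is read from that run. Promoters were aligned with Biopython 1.88. Alternatives were a pseudocount of 0.1, no filter, a mean FPKM of at least 5, trimmed-mean scaling, quantile normalization, voom on recovered reads, a replicate block, removal of a gene length trend (loess, span 0.3), and each library left out.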

Additional observations from a re-analysis of the deposited data

How the results depend on the processing

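Over the 12 alternatives Slfn1 and Slfn5 stayed lower and Slfn3 and Slfn9 higher in DMF cultures. The groups did not overlap in these genes, so most alternatives could not have changed their sign. Only trimmed-mean scaling, quantile normalization, voom and removal of the gene length trend could. Slfn2 changed direction under quantile normalization (0.31), with the gene length trend removed (0.00447) and without control replicate 2 (0.018), and Slfn8 under voom (0.12) and without control replicate 1 (0.50). Leaving out 1 library moved the count of called genes between 6 and 7420, the count of called members between 0 and 5, and the members' median between -0.30 and 0.11. The log2 differences then ran from -1.87 to -1.38 for Slfn1, -0.67 to 0.018 for Slfn2, 0.55 to 1.49 for Slfn3, -0.93 to -0.27 for Slfn5, -0.61 to 0.50 for Slfn8 and 0.22 to 0.91 for Slfn9. With no filter on low values all 54532 genes were fitted, not the 12166 of the main fit. There limma warned that most residual variances were 0 and its fit is unreliable. Of the 54532 genes 1034 passed, among them the 2 members Slfn1 (-1.62) and Slfn3 (1.02). With the replicate block 552 genes (4.54%) and 1 member, Slfn1 (-1.62, limma adjusted p = 0.00231), passed. The numbers mark no shared animal or day in the labels, and same-numbered libraries did not deviate together (correlation -0.023). That correlation cannot exclude a shared source, since the controls differed far more (SD 0.74, log2) than the DMF libraries (SD 0.32). The limma adjusted p of Slfn1 ran from 0.000105 with no filter to 0.946 without DMF replicate 1. The cause of these changes was not tested. With 2 libraries a group and a control set apart, the 0 calls over all genes do not show that no member changed. Slfn4, at 6 to 18 reads, was not tested.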
